A study of Homo sapiens with 8 samples.

Results

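SRXN1, OSGIN1 and TXNRD1, genes of the oxidative stress response controlled by the transcription factor NRF2, were followed here across inhibitor-treated and solvent-treated leukaemia cells. They are 3 of 14884 named genes on the array, each measured by 1 probe, and were taken by gene symbol. They had been picked because they stood out with IPA-3 in these same arrays. Their IPA-3 values are therefore given as a description with no test. The FRAX-597 change, which that choice did not use, carries the test, but its SE draws on the spread within all 8 arrays, including those behind the choice. The cells were THP-1, a human acute monocytic leukaemia line with an MLL-AF9 fusion, grown in culture and exposed for 5 h. There were 2 arrays of IPA-3 at 6 µg/mL, 2 of FRAX-597 at 2 µg/mL, and 4 of DMSO, the solvent, at equal volume. Both compounds inhibit p21-activated kinases, FRAX-597 by competing with ATP and IPA-3 at an allosteric site. One cell line, one dose of each compound and a single time point limit what these arrays describe, and nothing in the labels shows that repeat arrays came from separate cultures.

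NRF2, encoded by NFE2L2, is held in the cytoplasm and sent for degradation by KEAP1, an adaptor of the CUL3 ubiquitin ligase whose cysteines sense electrophiles and oxidants. When KEAP1 is modified, NRF2 accumulates, pairs with a small MAF protein and binds antioxidant response elements in the promoters of detoxification genes. Sulfiredoxin, the SRXN1 product, restores overoxidised peroxiredoxins, and TXNRD1 encodes the cytosolic thioredoxin reductase, a selenoprotein that keeps thioredoxin reduced with electrons from NADPH. OSGIN1 encodes a growth-restraining protein induced by oxidative stress.

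The promoter sequences are shown because the 3 genes were all higher in the IPA-3 arrays and because NRF2 acts through a short promoter motif. Each is the stretch of 250 bases directly before an annotated gene start, from RefSeq on GRCh38.p14, read in the direction of the gene. TXNRD1 has 2 annotated starts. Capitals mark letters that match TGACNNNGC, a core of the antioxidant response element, or TGANTCA, the AP-1 motif, each searched on both strands. The windows are chr20:653201-653450 (minus strand) for SRXN1, chr16:83952990-83953239 (plus strand) for OSGIN1, and chr12:104215529-104215778 and chr12:104286782-104287031 (both plus strand) for TXNRD1.
SRXN1: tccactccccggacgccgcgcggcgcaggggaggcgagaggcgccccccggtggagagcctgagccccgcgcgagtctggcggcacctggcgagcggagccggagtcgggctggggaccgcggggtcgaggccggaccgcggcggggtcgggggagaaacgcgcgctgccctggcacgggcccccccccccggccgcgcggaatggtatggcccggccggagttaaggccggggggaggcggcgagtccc
OSGIN1: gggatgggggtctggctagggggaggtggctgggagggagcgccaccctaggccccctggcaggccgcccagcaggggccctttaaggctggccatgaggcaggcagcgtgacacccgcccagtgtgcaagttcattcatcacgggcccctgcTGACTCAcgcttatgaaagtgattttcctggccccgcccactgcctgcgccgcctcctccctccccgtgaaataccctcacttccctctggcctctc
TXNRD1 start 1: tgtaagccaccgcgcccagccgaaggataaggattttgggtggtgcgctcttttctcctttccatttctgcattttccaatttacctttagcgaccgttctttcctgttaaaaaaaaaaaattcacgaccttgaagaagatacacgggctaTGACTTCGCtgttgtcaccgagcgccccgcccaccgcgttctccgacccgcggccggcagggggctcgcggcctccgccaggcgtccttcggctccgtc
TXNRD1 start 2: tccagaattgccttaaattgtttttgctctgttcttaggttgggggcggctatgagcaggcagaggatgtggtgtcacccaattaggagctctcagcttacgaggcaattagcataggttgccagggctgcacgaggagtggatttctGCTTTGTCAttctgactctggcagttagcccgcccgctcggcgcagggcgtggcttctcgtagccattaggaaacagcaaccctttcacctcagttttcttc

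TGACNNNGC matched in both TXNRD1 windows, on the strand of the gene from base -99 to -91 at start 1 and on the opposite strand from base -102 to -94 at start 2. OSGIN1 had a TGANTCA match from base -97 to -91, and the SRXN1 window had no match to either motif. The 2 motifs can overlap, as in a run that satisfies both, but no overlapping pair occurred in these 4 windows. Among all 35116 RefSeq windows of this length, 10.9% held TGACNNNGC and 6.57% held TGANTCA. Of 17 other NRF2 target genes on the array with a window in the table, 6 held TGACNNNGC, as did 14.9% of the 10749 array genes with a window. A match describes letters only, and a window without one says nothing about elements farther away.

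The arrays fell into 2 sets of 4, with DMSO 1 and 2 beside IPA-3 and DMSO 3 and 4 beside FRAX-597. Their medians over 53617 probes ran from 5.51 to 5.55 in the first set and from 6.00 to 6.05 in the second. Correlations between arrays over all probes were 0.986 to 0.992 within the first set, 0.974 to 0.990 within the second and 0.942 to 0.955 across sets. Each compound was therefore compared with the DMSO pair of the same set, in 1 limma fit of 4 groups over 14884 genes, called at a Benjamini-Hochberg adjusted p under 0.05. The monocyte label was checked on 8 measured markers of 12 listed, of which 6, including CD68, LYZ and SPI1, lay above the upper quartile of all probes. CD14 and MPO lay below it, at the 67.4th and 57.6th percentile. The T cell markers CD2 and LCK lay at the 47.3rd and 42.4th percentile and the fibroblast markers DCN and LUM at the 7.13th and 18.7th. PAX5 (B cell) lay at the 68.2nd, EPB42 (erythroid) at the 50.5th, and the 4 epithelial markers between the 31.7th and, for KRT18, the 93.5th. Summed over the 8 monocytic markers, the log2 values were 73.1 to 73.8 with IPA-3 against 74.0 to 74.3 in DMSO 1 and 2, and 73.8 to 75.5 with FRAX-597 against 73.0 to 75.4 in DMSO 3 and 4. No marker of any of these cell types passed the test with IPA-3 or FRAX-597 (0 called). Of all 14884 genes only 0.0336% passed with IPA-3 and 0.155% with FRAX-597, so this count does not show an unchanged cell state.

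With IPA-3, SRXN1 and OSGIN1 were each more than 3-fold higher and TXNRD1 nearly 2-fold higher than in DMSO 1 and 2. SRXN1 (probe 16916352) had log2 values of 9.83 and 9.60 in the IPA-3 arrays and 7.68 and 7.86 in DMSO 1 and 2. OSGIN1 (probe 16821414) had 7.93 and 7.85 with IPA-3 and 6.25 and 6.09 in DMSO. TXNRD1 (probe 16756163) had 10.08 and 9.99 with IPA-3 and 9.04 and 9.11 in DMSO. For each of the 3 genes both IPA-3 arrays were above both DMSO arrays, a pattern that 19.3% of all 14884 genes showed. The narrowest gap, between the lower IPA-3 array and the higher DMSO array, was 1.74 for SRXN1, 1.59 for OSGIN1 and 0.88 for TXNRD1 on the log2 scale.

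SRXN1 averaged 9.71 ± 0.16 with IPA-3 and 7.77 ± 0.13 in DMSO 1 and 2 (SD, n = 2 each), a 3.84-fold difference with a log2 change of 1.94 (SE 0.14). OSGIN1 averaged 7.89 ± 0.060 with IPA-3 and 6.17 ± 0.12 in DMSO (SD, n = 2 each), 3.29-fold (log2 change 1.72, SE 0.12). TXNRD1 averaged 10.03 ± 0.067 with IPA-3 and 9.07 ± 0.048 in DMSO (SD, n = 2 each), 1.95-fold (log2 change 0.96, SE 0.14). Ordered by log2 change among all 14884 genes, SRXN1 was number 3, OSGIN1 number 4 and TXNRD1 number 42, while the median gene had a change of -0.023. In that fit 0.0336% of genes passed the threshold for IPA-3. With all 4 DMSO arrays pooled as the control, which mixes the array sets, the log2 changes were 1.40 for SRXN1, 1.28 for OSGIN1 and 1.30 for TXNRD1. The median gene then had a change of -0.26.

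**Figure D1:**
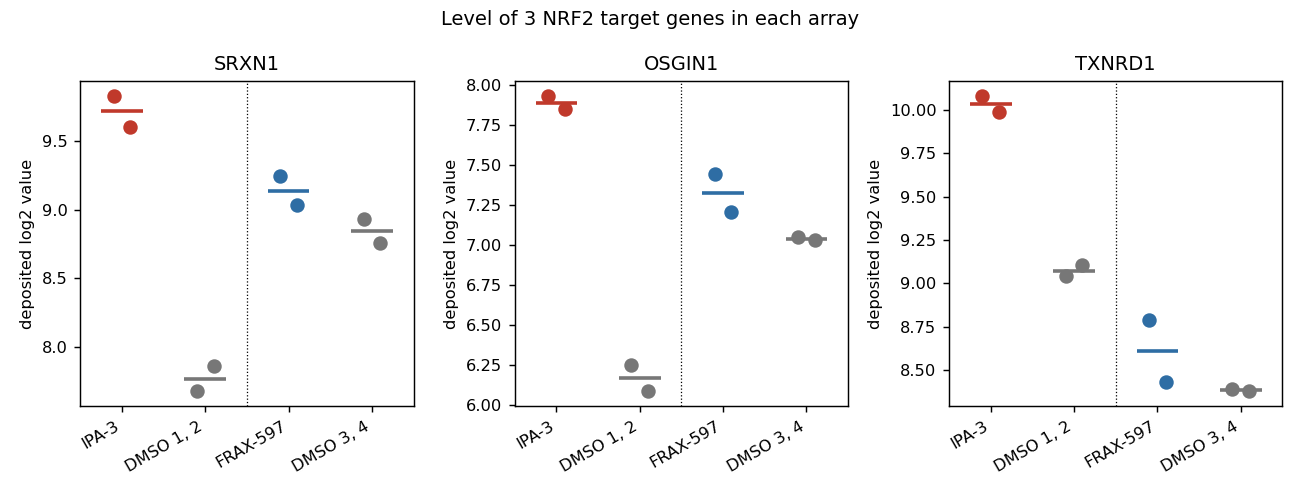
Deposited log2 values of SRXN1, OSGIN1 and TXNRD1 by group. Each point is 1 array, each bar the mean of 2 arrays, and the dotted line separates the array sets, which lie on different scales. Both IPA-3 points sit above both points of DMSO 1 and 2 in all 3 panels, and the FRAX-597 points sit slightly above those of DMSO 3 and 4.

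FRAX-597 gave small differences that did not pass the test for any of the 3 genes. SRXN1 had log2 values of 9.24 and 9.03 with FRAX-597 and 8.93 and 8.76 in DMSO 3 and 4. OSGIN1 had 7.44 and 7.21 with FRAX-597 and 7.05 and 7.03 in DMSO. TXNRD1 had 8.79 and 8.43 with FRAX-597 and 8.39 and 8.38 in DMSO. Both FRAX-597 arrays were above both DMSO arrays for all 3 genes, as they were for 13.0% of all genes, but the gaps were only 0.10 for SRXN1, 0.16 for OSGIN1 and 0.037 for TXNRD1. FRAX-597 replicate 1 was the higher of the pair each time, by 0.21, 0.23 and 0.36 in the same order.

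The FRAX-597 change of SRXN1 was 0.29 on the log2 scale, or 1.22-fold (SE 0.14, 95% interval -0.039 to 0.62; limma adjusted p = 0.732). For OSGIN1 it was 0.29, also 1.22-fold (SE 0.12, interval -0.0038 to 0.57; limma adjusted p = 0.659). For TXNRD1 it was 0.22, or 1.17-fold (SE 0.14, interval -0.096 to 0.54; limma adjusted p = 0.832). Over all genes, 0.155% passed the threshold for FRAX-597. Ordered by log2 change with FRAX-597, SRXN1 was number 1130, OSGIN1 number 1163 and TXNRD1 number 1665 of 14884. Without FRAX-597 replicate 1 the changes were 0.18 for SRXN1, 0.17 for OSGIN1 and 0.045 for TXNRD1, and without replicate 2 they were 0.40 for each gene. With the 4 DMSO arrays pooled, the FRAX-597 changes were 0.83 for SRXN1 and 0.72 for OSGIN1 (limma adjusted p = 0.604 each). That of TXNRD1, whose level was higher in DMSO 1 and 2 than in DMSO 3 and 4, was -0.12 (limma adjusted p = 0.807). The median FRAX-597 change over all genes was itself 0.23 with these pooled controls. The FRAX-597 change minus the IPA-3 change was -1.65 for SRXN1 (SE 0.20), -1.43 for OSGIN1 (SE 0.17) and -0.74 for TXNRD1 (SE 0.19), given without a test because the IPA-3 contrast chose the genes. The compounds were used at different doses and on different array sets.

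**Figure D2:**
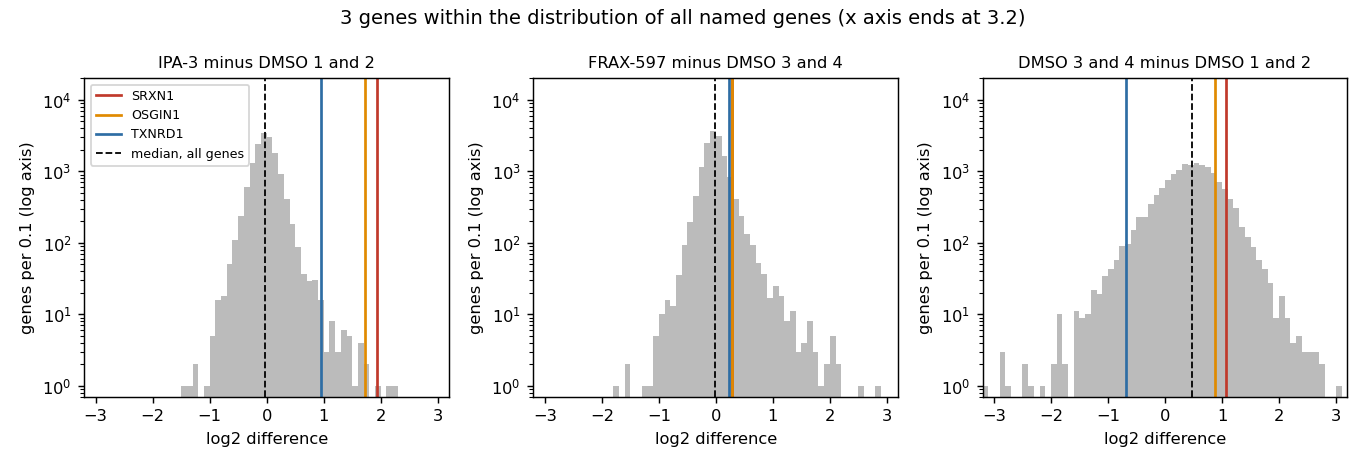
Histograms of the log2 difference of all 14884 named genes for IPA-3, for FRAX-597 and for DMSO 3 and 4 minus DMSO 1 and 2, with counts on a log axis. Coloured lines mark the 3 genes and the dashed line the median of all genes. The 3 genes lie in the upper tail with IPA-3 (1.94, 1.72 and 0.96). With FRAX-597 they lie above the median (0.29, 0.29 and 0.22), at numbers 1130, 1163 and 1665 from the top. Between the DMSO pairs they lie on both sides of the median (1.08, 0.87 and -0.69).

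The solvent controls themselves differed in these genes, and TXNRD1 went the other way from SRXN1 and OSGIN1. SRXN1 averaged 8.85 in DMSO 3 and 4 and 7.77 in DMSO 1 and 2, and OSGIN1 averaged 7.04 in DMSO 3 and 4 and 6.17 in DMSO 1 and 2. TXNRD1 averaged 8.38 in DMSO 3 and 4 and 9.07 in DMSO 1 and 2. The median gene was itself 0.48 higher in DMSO 3 and 4. Relative to that shift SRXN1 was 0.60 higher, OSGIN1 0.39 higher and TXNRD1 had a difference of -1.17. TXNRD1 was number 329 of 14884 from the bottom of that order, whereas SRXN1 was number 1405 from the top. With each array set to its own median, 31.3% of all genes had both arrays of DMSO 3 and 4 above both of DMSO 1 and 2, as SRXN1 and OSGIN1 did, and 39.8% had both below, as TXNRD1 did. Scaling and culture differences between the sets cannot be told apart here.

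Set to the median of its own array, SRXN1 lay 4.18 above it with IPA-3, 3.11 with FRAX-597, 2.81 in DMSO 3 and 4 and 2.26 in DMSO 1 and 2. OSGIN1 followed the same order at 2.35, 1.30, 1.001 and 0.66. TXNRD1 lay 4.50 above the median with IPA-3, then 3.56 in DMSO 1 and 2, 2.59 with FRAX-597 and 2.35 in DMSO 3 and 4. FRAX-597 and DMSO 3 and 4 are neighbours in each of these orders, and they are the pair that the test above did not separate. Values across the sets are placed side by side without a test, because which arrays were normalized together is not stated.

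Genes next to the 3 loci were read for comparison, a choice made after the values were seen. The measured protein-coding neighbours of SRXN1 are TCF15 and ANGPT4, with IPA-3 changes of 0.11 (SE 0.13) and 0.075 (SE 0.11). Those of OSGIN1 are MLYCD, at 0.0076 (SE 0.16), and NECAB2, which overlaps OSGIN1 in the annotation, at 0.047 (SE 0.24). HCFC2, beside TXNRD1, had a change of -0.060 (SE 0.10).

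EID3, which encodes an EP300-interacting inhibitor of differentiation and overlaps TXNRD1 in the annotation, stood out among these neighbours. Its log2 values were 8.21 and 8.28 with IPA-3 and 6.77 and 6.96 in DMSO 1 and 2 (log2 change 1.38, SE 0.28; limma adjusted p = 0.384). With FRAX-597 they were 8.65 and 7.67, against 7.50 and 7.47 in DMSO 3 and 4 (log2 change 0.67, SE 0.28; limma adjusted p = 0.632). Both arrays of each compound were above both arrays of its DMSO pair, but neither change passed. Whether the EID3 probe also reads TXNRD1 transcripts was not tested.

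The 3 genes shared the IPA-3 step, which dominated their profiles over the 8 arrays. After the mean of its own DMSO pair was subtracted from each array, Pearson's r over the 8 arrays was 0.991 between OSGIN1 and SRXN1, 0.983 between TXNRD1 and SRXN1, and 0.982 between TXNRD1 and OSGIN1. The 2 IPA-3 arrays set the range of these profiles, and the genes were chosen for that step, so r is a description. Within DMSO 1 and 2, SRXN1 lay at -0.090 and 0.090 and TXNRD1 at -0.034 and 0.034, while OSGIN1 went the other way, at 0.083 and -0.083. Between DMSO 3 and DMSO 4, all 3 genes were higher in DMSO 3. Among 336 other protein-coding genes with an IPA-3 change of at least 0.5 in either direction, OSGIN1 was the gene most like SRXN1, and SRXN1 the most like OSGIN1.

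Next after these was DST, which encodes the cytoskeletal linker dystonin, at r = 0.989 with SRXN1 and 0.988 with OSGIN1, followed by TXNRD1 for both. DST had log2 changes of 0.75 with IPA-3 (SE 0.099) and 0.20 with FRAX-597 (SE 0.099). ASF1A, a histone chaperone, was the gene most like TXNRD1, at r = 0.999, with changes of 0.79 (SE 0.13) and 0.18 (SE 0.13). NMT2, an N-myristoyltransferase, was second for TXNRD1 (r = 0.984) and also among the 5 for SRXN1 (r = 0.977), with changes of 0.84 and 0.24. NEIL3, a DNA glycosylase, reached r = 0.977 with SRXN1 and 0.980 with OSGIN1, with changes of 0.69 and 0.12. MACO1 (r = 0.980 with OSGIN1) had changes of 0.55 and 0.0052. C1orf21 (r = 0.980 with TXNRD1) had the largest FRAX-597 change of these 6 genes, 0.65 (SE 0.16; limma adjusted p = 0.285), beside 1.63 with IPA-3.

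**Figure D3:**
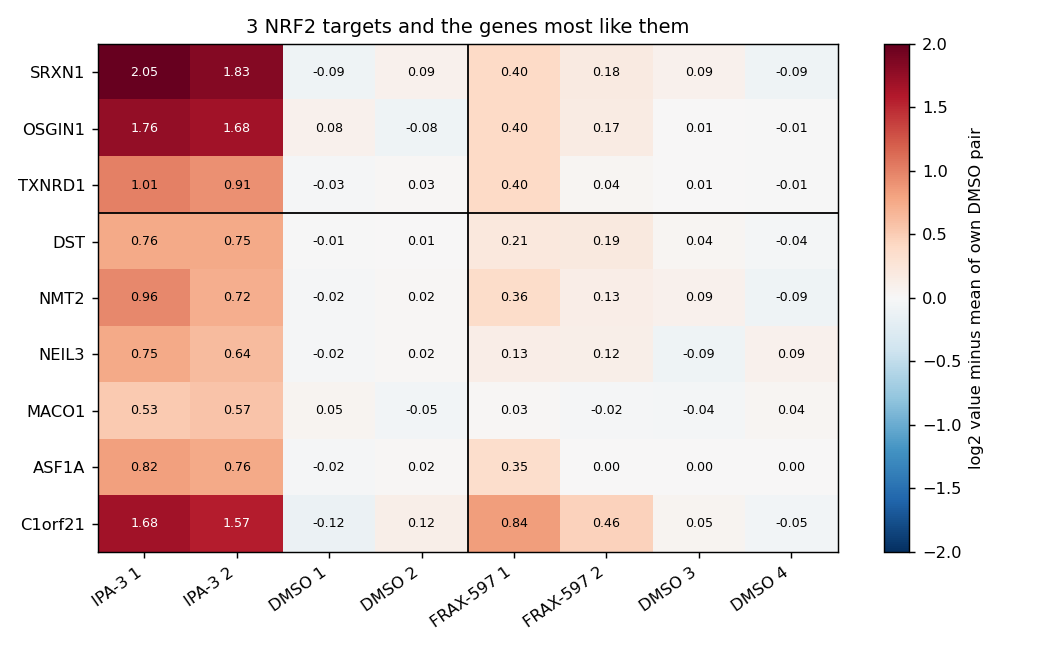
Log2 value of each array minus the mean of its own DMSO pair, for the 3 genes (above the line) and the 6 other genes most like them. Colour and printed value give the difference, with the first array set on the left and the second on the right. IPA-3 columns are positive throughout, from 0.53 in MACO1 to 2.05 in SRXN1, and FRAX-597 replicate 1 is higher than replicate 2 in each of the 9 genes.

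Around the 3 genes, the sensor and partners of NRF2 were measured for 9 of 12 listed regulators, of which 0 passed the test with either compound. Over all genes 0.0336% passed with IPA-3 and 0.155% with FRAX-597. Of the 9 regulators, 3 had an unadjusted p under 0.05 in limma with IPA-3, all higher, and 0 did with FRAX-597. With IPA-3, 3.10% of all genes were higher at that level. SQSTM1, the autophagy receptor p62 that sequesters KEAP1, had log2 values of 8.51 and 8.52 with IPA-3 and 7.50 and 7.46 in DMSO 1 and 2 (log2 change 1.04, SE 0.24; limma adjusted p = 0.478). KEAP1 had 9.95 in both IPA-3 arrays and 9.33 and 9.31 in DMSO (0.63, SE 0.13; limma adjusted p = 0.402). MAFG, a small MAF partner of NRF2, had a change of 0.52 (SE 0.12).

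NFE2L2 itself had log2 values of 9.20 and 9.34 with IPA-3 and 8.79 and 8.71 in DMSO 1 and 2 (0.51, SE 0.27; limma adjusted p = 0.751). With FRAX-597 it had 9.94 and 8.98, against 8.96 and 8.76 in DMSO 3 and 4 (0.60, SE 0.27; limma adjusted p = 0.692). One FRAX-597 array was far above the other for this gene, and both were above both DMSO arrays. Without FRAX-597 replicate 2, the lower of the pair, the change was 1.08 and rested on 1 FRAX-597 array. KEAP1 with FRAX-597 had 9.18 and 9.01 against 9.34 and 9.04, which overlap. NFE2L1, a relative of NRF2 that governs proteasome genes, had 0.15 with IPA-3 and 0.36 with FRAX-597 (SE 0.21 each).

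Of 55 other NRF2 targets listed, 24 were measured. With IPA-3, 17 of 24 had a change above 0, against 44.4% of all genes, and the median change was 0.19, against -0.023 over all genes. Both IPA-3 arrays lay above both DMSO arrays for 16 of the 24, against 19.3% of all genes, and below for 2, against 28.3%. By limma 0 passed the adjusted threshold and 7 had an unadjusted p under 0.05, all 7 higher, against 3.10% of all genes that were higher at that level, namely GSR, HMOX1, CBR3, PGD, TRIM16, TALDO1 and FECH. The list was written with the IPA-3 result on this pathway known, so it is no independent evidence of direction. With FRAX-597, 11 of 24 were above 0, against 45.3% of all genes. Both FRAX-597 arrays lay above both DMSO arrays for 1 of the 24, against 13.0% of all genes, and below for 3, against 17.8%. By limma 0 passed and 0 had an unadjusted p under 0.05, against 7.66% of all genes. The FRAX-597 median was -0.013 on the deposited scale and turned to 0.0017 with arrays centred on their medians and to 0.10 with pooled controls. Over all genes the FRAX-597 median was -0.018, -0.0034 and 0.23 in the same order, so with pooled controls the targets lay below the general shift.

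HMOX1 and GSR had the largest IPA-3 changes among these targets. HMOX1, the inducible haem oxygenase, had log2 values of 10.93 and 10.85 with IPA-3 and 9.18 and 9.19 in DMSO 1 and 2 (log2 change 1.71, SE 0.50; limma adjusted p = 0.543). With FRAX-597 it had 10.12 and 8.66, against 10.01 and 8.83 in DMSO 3 and 4. The groups overlap there, and the spread within each pair of the second set entered the SE of the IPA-3 change. GSR, glutathione reductase, had 10.97 and 10.85 with IPA-3 and 9.37 and 9.51 in DMSO 1 and 2 (1.47, SE 0.25; limma adjusted p = 0.257), and a FRAX-597 change of -0.0029. When the first array set was fitted alone, GSR (limma adjusted p = 0.0159), HMOX1 (0.0124), CBR3 (0.0342), TRIM16 (0.0359) and, among the regulators, SQSTM1 (0.0185) passed for IPA-3. In that fit 96 of all 14884 genes passed, against 5 in the main fit. The gene lists were written with the IPA-3 result known, so these calls are a description.

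Of the other 7 glutathione genes, the largest IPA-3 changes were 0.33 for the peroxidase GPX2 (SE 0.15) and -0.36 for glutaredoxin, GLRX (SE 0.18). In NADPH supply, PGD of the pentose phosphate pathway lay 0.68 higher with IPA-3 (SE 0.12; limma adjusted p = 0.257) and TALDO1 0.42 higher (SE 0.11), while transketolase, TKT, had -0.097 (SE 0.13). FRAX-597 changes of these 3 lay between 0.010 and 0.060. The changes of CBR3, a carbonyl reductase, were 0.77 with IPA-3 (SE 0.14; limma adjusted p = 0.257) and 0.057 with FRAX-597, and those of its relative CBR1 were -0.0098 and -0.31. FECH, which inserts iron into haem, had 0.37 with IPA-3, and BLVRA, a biliverdin reductase, had -0.17. TRIM16, a tripartite motif protein, had 0.80 with IPA-3 and 0.40 with FRAX-597 (SE 0.29).

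Partners and relatives of the 3 gene products had IPA-3 changes from -0.46 for SESN3 to 0.46 for OSGIN2. They are not ranked against the 3 genes, which were chosen for a large IPA-3 change. Of 18 measured genes among 19 listed thioredoxins, peroxiredoxins, sestrins and relatives, 8 were above 0 with IPA-3, against 44.4% of all genes. The median of the 18 was -0.071. By limma 0 passed and 1, mitochondrial thioredoxin TXN2, had an unadjusted p under 0.05 (-0.37), against 7.21% of all genes. TXN, the substrate of TXNRD1, had log2 values of 12.08 and 12.05 with IPA-3 and 11.78 and 11.82 in DMSO 1 and 2 (0.27, SE 0.18; limma adjusted p = 0.786). PRDX1, a peroxiredoxin that sulfiredoxin repairs, had 11.85 and 11.70 with IPA-3 and 11.59 and 11.60 in DMSO (0.18, SE 0.18). The mitochondrial and other reductases TXNRD2 and TXNRD3 had IPA-3 changes of -0.23 and 0.061, and OSGIN2, the relative of OSGIN1, had an SE of 0.24 beside its change of 0.46.

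SESN2, a stress-induced sestrin, had the largest FRAX-597 change of these partners and relatives. It had log2 values of 10.58 and 9.07 with FRAX-597 and 8.54 and 7.76 in DMSO 3 and 4 (1.67, SE 0.45; limma adjusted p = 0.355). Without FRAX-597 replicate 2, the lower of the pair, the change was 2.43 and rested on the higher FRAX-597 array alone. The IPA-3 change of SESN2 was 0.41 (SE 0.45). Of 12 listed genes of selenoprotein synthesis and other selenoproteins, on which TXNRD1 depends or which share its selenocysteine, 9 were measured. With either compound 0 of these passed, where 0.0336% of all genes passed with IPA-3 and 0.155% with FRAX-597. With IPA-3, 2 of these 9 were above 0, against 44.4% of all genes, and the median was -0.12, against -0.023. The FRAX-597 change of SEPSECS, the enzyme that makes selenocysteine on its tRNA, was 0.49 (SE 0.16; limma adjusted p = 0.488), and glutathione peroxidase GPX1 had an IPA-3 change of -0.23 (SE 0.20).

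**Figure D4:**
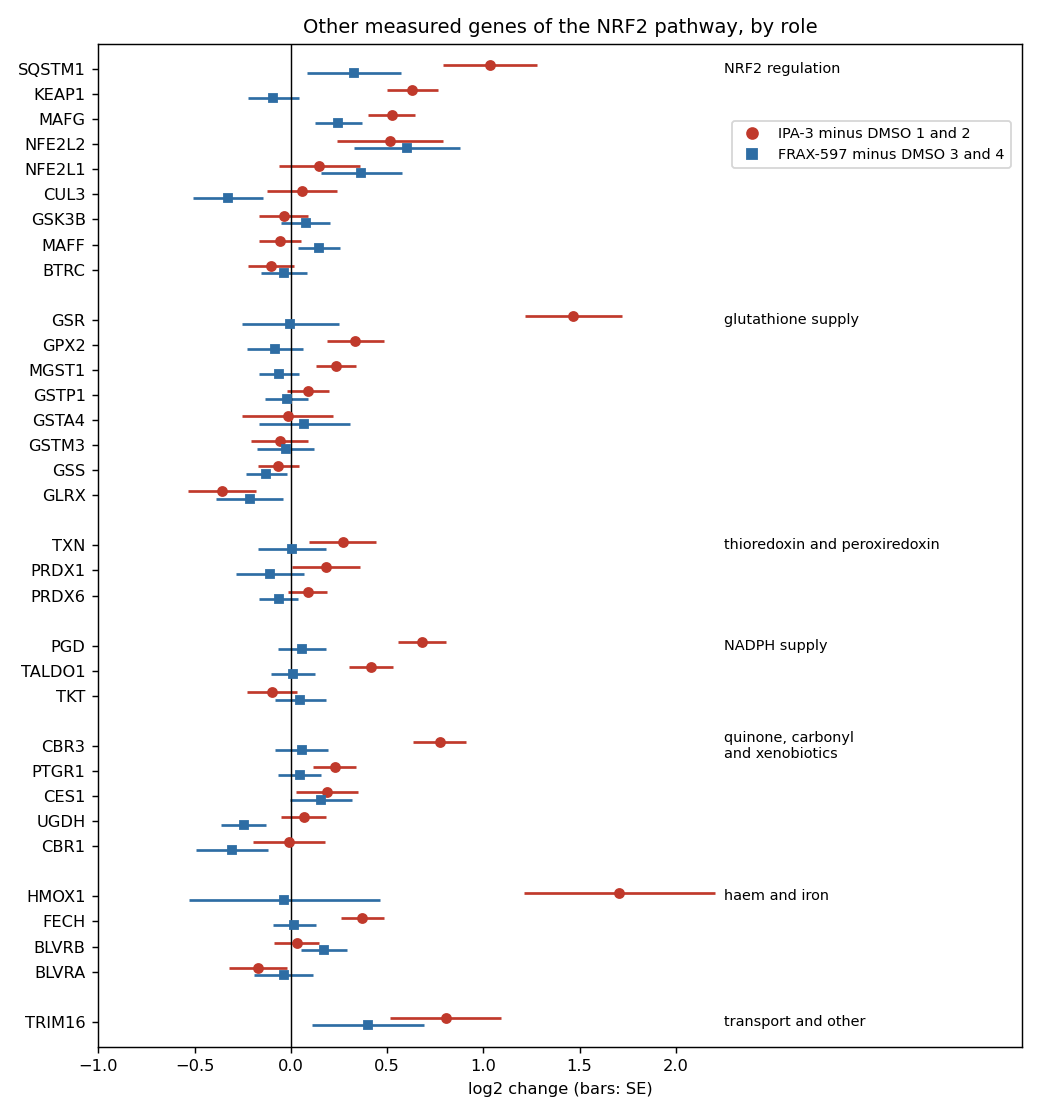
Log2 change of 9 NRF2 regulators and 24 other NRF2 targets, grouped by role, with IPA-3 (circles) and FRAX-597 (squares) each against the DMSO pair of its own array set. Bars are the limma SE. HMOX1 and GSR lie farthest to the right with IPA-3, at 1.71 and 1.47, and their FRAX-597 squares lie at -0.033 and -0.0029.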

How the data were processed

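The deposited table holds the authors' processed log2 values for 53617 probes in 8 one-colour Affymetrix whole-transcript arrays. Affymetrix Expression Console and Transcriptome Analysis Console made them, per the submitters' processing notes, which state no version, while the summarisation, the background correction and which arrays were normalized together are unstated. Values were used as deposited, so a difference is a log2 fold change as the authors' processing left it, and arrays carry no read depth, so that their number limits the precision.

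The platform annotation named 16098 probes with 1 gene each, 0 with several, and 37519 were unnamed here. All 16098 gene identifiers matched RefSeq for GRCh38.p14, which served for names and gene order. The array's own genome build was not given in the sources used here. For 779 genes with several probes the probe of highest mean was kept, giving 14884 genes. limma 3.58.1 (R 4.3.3, lmFit and eBayes) was fitted to 4 groups of 2 arrays, with p-values adjusted over all 14884 genes. The procedure was tested on simulated data. p-values measure the spread between arrays, which may be technical.

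The 3 genes, the gene lists and the control pairs were chosen with earlier results of these data known. Named genes were the 3 genes, in each list those that passed and the 3 largest absolute changes per compound, of which the text gives most, and the 5 profiles most like each gene. Promoter sequences came from RefSeq, for 3 of 3 genes. Alternatives were pooled controls, each set alone, other scalings, probe rules, a filter on low values, another prior, a block and leaving out each array.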

Additional observations from a re-analysis of the deposited data

Results flagged for a closer look

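Among 50 genes checked over the 4 DMSO arrays on the deposited scale, 2 had 1 array far from the other 3. A rate of about 1 in 20 by chance holds only for arrays on the same scale. The array medians were 5.51 in DMSO 1 and 2, 6.03 in DMSO 3 and 6.05 in DMSO 4. Which array stands out can therefore change with the scaling. KEAP1 was low in DMSO 4, at a log2 value of 9.04 against 9.33, 9.31 and 9.34 in DMSO 1, 2 and 3, and the gap made up 0.893 of the range. PRDX1 was high in DMSO 3, at 11.96 against 11.59, 11.60 and 11.59 in DMSO 1, 2 and 4, where the gap made up 0.956 of the range. Both genes enter the FRAX-597 comparison through these arrays. FRAX-597 replicates 1 and 2 also lay apart, at 11.87 and 11.47 for PRDX1 and at 9.18 and 9.01 for KEAP1, so the spread was not confined to 1 DMSO array.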

How the results depend on the processing

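No paired analysis was possible because the labels give the compounds no replicate numbers that DMSO shares. A replicate block in the second array set was still fitted, with DMSO 3 beside FRAX-597 1 and DMSO 4 beside FRAX-597 2. These pairs come from the values, so the block can lower the estimated spread and its p-values may be too small. Under this replicate block 202 genes passed for FRAX-597 in place of 23 and 72 for IPA-3 in place of 5, with 3 of the 24 NRF2 targets for IPA-3 in place of 0 (GSR, CBR3 and HMOX1). The regulators KEAP1 and SQSTM1 passed for IPA-3 (limma adjusted p 0.0405 and 0.0243) and SESN2 for FRAX-597 (0.00602), while SRXN1, OSGIN1 and TXNRD1 stayed uncalled for FRAX-597 (limma adjusted p 0.301, 0.280 and 0.413). The FRAX-597 change of SRXN1 and of OSGIN1 was positive and uncalled in all 17 alternatives (adjusted p from 0.301 and 0.259), and that of TXNRD1 uncalled in all 17 (from 0.229) and reversed with pooled controls, at -0.12. Leaving out each array gave 0.18 to 0.40 for SRXN1, 0.17 to 0.40 for OSGIN1 and 0.045 to 0.40 for TXNRD1.

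The IPA-3 changes moved beyond the replicate spread only with pooled controls, to 1.40, 1.28 and 1.30 for SRXN1, OSGIN1 and TXNRD1, and ranged from 1.83 to 2.05, 1.64 to 1.80 and 0.91 to 1.01 without single arrays. The DMSO 3 and 4 minus DMSO 1 and 2 differences kept their sign, at 0.72, 0.40 and -1.01 after quantile normalization and 0.55, 0.34 and -1.21 with arrays centred on their medians. Leaving out arrays gave 0.99 to 1.17, 0.79 to 0.95 and -0.72 to -0.66.

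Counts over all features depended on the settings. For FRAX-597 they were 5 with pooled controls, 0 with the set alone and 6 with every probe as a feature, and 2 to 227 when an array was left out (227 without FRAX-597 replicate 2). For IPA-3 they were 0 with pooled controls, 96 with the set alone, 2 after quantile normalization, 0 with every probe as a feature, 2 with genes above the median of all probes only, 8 with an intensity trend and robust prior, and 0 to 24 when an array was left out. NRF2 targets called for IPA-3 numbered 4 with the set alone and 0 whichever array was left out. With 2 arrays a group, small changes such as those of FRAX-597 could not be separated from no change.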
